A study of Mus with 2 samples.

Results

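The 10 genes of the DNA methylation and Polycomb machinery described here were followed in hematopoietic stem cells (HSCs) with and without Id2. They are the DNA methyltransferases Dnmt1, Dnmt3a and Dnmt3b, the methylcytosine dioxygenases Tet1, Tet2 and Tet3, the Polycomb methyltransferases Ezh1 and Ezh2, the Polycomb ring protein gene Bmi1, and Asxl1. The genes were chosen by symbol, each symbol matched 1 row, and together they are 10 of the 27998 genes in the count matrices. The sort of tibia and fibula marrow took LSK (lineage-negative, Sca-1+, c-Kit+) cells that were FLT3–, CD150+ and CD48–. Each genotype was 1 scRNA-Seq library (10x Genomics Chromium) of 1000 sorted cells from 5 pooled mice aged 8 to 12 weeks. The 2 groups were Mx1-Cre Id2+/+ and Mx1-Cre Id2Δ/Δ, so the controls also carried Mx1-Cre, a recombinase that poly(I:C) switches on in blood-forming and other interferon-responsive cells. Both received poly(I:C), and HSCs were taken 2 weeks later. A clause of the labels' text on the Id2Δ/Δ library names Id2+/+ bones, while its title and genotype give the deletion, and the Id2 counts below go with the latter. Pooling removes the spread between mice and there is no second library, so differences between genotypes have no replicate check, no p-value is given, and the intervals below cover counting error at 95% only.

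DNA methylation at CpG sites is copied after replication by DNMT1, which UHRF1 recruits to hemimethylated DNA, and is laid down anew by DNMT3A and DNMT3B. TET proteins oxidise methylcytosine, the first step of its removal. Polycomb repressive complex 2 (PRC2) methylates histone H3 at lysine 27 through EZH2 or its relative EZH1, PRC1 holds BMI1 and ubiquitinates histone H2A, and ASXL1 is a cofactor of BAP1, the enzyme that removes this ubiquitin. In blood, DNMT3A, TET2 and ASXL1 are the genes most often mutated in clonal hematopoiesis, BMI1 is needed for HSC self-renewal, and EZH2 is linked with dividing cells whereas EZH1 is found in resting ones.

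The Id2+/+ library held 8612217 unique molecular identifiers (UMIs, 1 per captured RNA molecule) and the Id2Δ/Δ library 17140713. Cells under the mitochondrial limit numbered 333 and 625. Of these, 262 and 416 lay in clusters that were not marked by erythroid, neutrophil or other listed blood cell genes and are called HSC-sort cells. They held 2133449 and 4685729 UMIs, with medians of 7081 and 9663 per cell. All 12 HSC markers examined were detected in them, at a summed 874 and 655 CPM (UMIs per 1000000 UMIs). The others were Erythroid-like (35 and 156), Neutrophil-like (27 and 40) and Haemoglobin-rich cells (9 and 13), which the sort should leave out. Within the HSC-sort cells, 2 Id2+/+ cells held 128 UMIs of B-lineage genes (Vpreb1, Vpreb3, Igll1, Dntt and Cd79a), and no other HSC-sort cell had more than 1. Megakaryocyte genes were not used to set cells apart. The HSC-sort cells include a cluster led by Pf4, Gp1bb and Sdpr (8 Id2+/+ and 74 Id2Δ/Δ cells). Another was led by Vpreb3, Ung and Vpreb1 (13 and 90 cells), and both were below average in HSC markers. The name Vpreb3 cluster used below is a label only. None of its 90 Id2Δ/Δ cells held more than 1 UMI of those B-lineage genes. All 14 erythroid and 10 neutrophil markers had UMIs in HSC-sort cells of both libraries. Summed erythroid markers were at 1513 and 1044 CPM in HSC-sort cells, neutrophil markers at 1073 and 641 CPM, and B, T and NK markers at 155 and 164 CPM with Cd3e and Cd3d at 0, and their part in the differences below was not tested. The libraries shared 1 cell barcode. By haemoglobin UMIs, free RNA was estimated at 10.5% and 5.41% of the HSC-sort UMIs. Id2 itself had 22 UMIs (10.3 CPM, 6.46 to 15.6) in Id2+/+ HSC-sort cells and 0 in Id2Δ/Δ ones, with an upper limit of 0.787 CPM, and 99 and 4 over all barcodes.

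The 10 genes are protein-coding and were located by RefSeq coordinates on GRCm38.p6, the assembly that mm10 represents. Dnmt1 (ENSMUSG00000004099) lies on chromosome 9 from 20907206 to 20959888, Dnmt3a (ENSMUSG00000020661) on chromosome 12 from 3801559 to 3914443 and Dnmt3b (ENSMUSG00000027478) on chromosome 2 from 153649411 to 153687730. Asxl1 (ENSMUSG00000042548), from 153345830 to 153404007, and Bmi1 (ENSMUSG00000026739), from 18677018 to 18686629, are also on chromosome 2. Tet1 (ENSMUSG00000047146) is on chromosome 10 from 62804570 to 62887469, Tet2 (ENSMUSG00000040943) on chromosome 3 from 133463677 to 133545136 and Tet3 (ENSMUSG00000034832) on chromosome 6 from 83362373 to 83457208. Ezh2 (ENSMUSG00000029687) is on chromosome 6 from 47530274 to 47595270, and Ezh1 (ENSMUSG00000006920) on chromosome 11 from 101191115 to 101226463. A RefSeq noncoding gene overlaps Dnmt1, Dnmt3a, Tet1, Tet3 and Ezh2, whose counts are to that extent uncertain. The counts come from transcript ends, so a gene's level is compared across cells below and not with the level of another gene.

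Summed over all HSC-sort cells, Dnmt1 and Ezh2 were both higher without Id2, but neither was higher beyond counting error within any of the 6 clusters of these cells, and the libraries fell into those clusters very unequally. Dnmt1 had 143 UMIs in Id2+/+ cells, or 67.0 CPM (56.5 to 79.0), and 425 in Id2Δ/Δ cells, or 90.7 CPM (82.3 to 99.7). The ratio was 1.35 (1.12 to 1.65). Ezh2 had 172 UMIs, or 80.6 CPM (69.0 to 93.6), and 477 UMIs, or 101.8 CPM (92.9 to 111), a ratio of 1.26 (1.06 to 1.51). These were the 2 of 10 ratios whose counting interval excluded 1, and both genes stayed under the 1.5-fold difference used here to count genes. By that measure, taken with 0.5 UMI added to each count, 0 of the 10 genes were higher in Id2Δ/Δ cells, against 3.30% of the 10458 genes with at least 20 UMIs. Tet2 and Ezh1 were lower by that measure, 2 of 10 against 13.5% of all genes, and 2 of 10 in either direction against 16.8%.

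Different clusters held most HSC-sort cells of each library. The 2 clusters high in HSC markers were led by Cd74 and H2-Aa (11 Id2+/+ and 176 Id2Δ/Δ cells) and by Meg3 and Fos (162 and 16 cells). In these cells alone, chosen after seeing the data, Dnmt1 had a ratio of 1.06 (0.744 to 1.51) and Ezh2 a ratio of 1.19 (0.852 to 1.68), so both intervals included 1. Within single clusters, Dnmt1 had a ratio under 1 in the 4 clusters where both libraries had UMIs of it, with every interval including 1. Its ratio was 0.687 (0.283 to 2.17) in the Cd74 cluster, 0.748 (0.490 to 1.19) in the Vpreb3 cluster, 0.691 (0.453 to 1.10) in the Pf4 cluster and 0.970 (0.445 to 2.34) in a cluster led by Hist1h2bc (19 and 57 cells). In the Meg3 cluster Dnmt1 had 51 and 0 UMIs, with an upper limit of 0.663 for the ratio, so this interval left out 1. In a cluster led by Ccl5 (49 and 3 cells) Dnmt1 had 27 and 0 UMIs. The upper limit was 2.82, so no direction can be read in the Ccl5 cluster. Ezh2 had a ratio under 1 in 4 of the 6 clusters, also with 1 interval that left out 1. These ratios were 0.632 (0.166 to 1.71) in the Meg3 cluster, 0.543 (0.371 to 0.817) in the Vpreb3 cluster, 0.935 (0.601 to 1.52) in the Pf4 cluster and 0.641 (0.356 to 1.195) in the Hist1h2bc cluster. In the Cd74 and Ccl5 clusters its ratios were 1.92 (0.518 to 16.1) and 1.44 (0.286 to 4.54). The difference in the sum over HSC-sort cells therefore cannot be told apart from the unequal share of each cluster in the libraries, and the smaller library of a cluster held between 3 and 19 cells.

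The libraries also differed in the sexes of their cells, with 84 Id2+/+ and 231 Id2Δ/Δ HSC-sort cells that held Xist and no Y-linked UMI and 93 and 90 that held the reverse. Among the Xist cells the ratios were 1.13 (0.846 to 1.52) for Dnmt1 and 1.13 (0.867 to 1.501) for Ezh2. Among the Y-linked cells they were 1.71 (1.15 to 2.59) and 1.24 (0.875 to 1.77). With each cell thinned to 5800 UMIs, Dnmt1 had a ratio of 1.41 (1.06 to 1.91) and Ezh2 of 1.21 (0.939 to 1.58).

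For the de novo methyltransferases, both ratios had intervals that included 1. Dnmt3a, which makes the marks anew, was at 43.1 CPM (34.8 to 52.9) in Id2+/+ cells and 37.1 CPM (31.8 to 43.1) in Id2Δ/Δ cells, with a ratio of 0.861 (0.665 to 1.12). Its relative Dnmt3b was at 45.9 CPM (37.3 to 56.0) and 50.6 CPM (44.3 to 57.4), and its ratio was 1.10 (0.867 to 1.41). The 2 libraries' intervals overlapped for both genes.

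Of the Tet genes, Tet1 and Tet2 gave few UMIs. Tet1 had 21 and 67, at 9.84 CPM (6.09 to 15.05) and 14.3 CPM (11.1 to 18.2), and its ratio of 1.45 (0.879 to 2.50) included 1. Tet2, the dioxygenase gene most often mutated in clonal hematopoiesis, had 13 and 15 UMIs, at 6.09 CPM (3.24 to 10.4) and 3.20 CPM (1.79 to 5.28), and its ratio was 0.525 (0.233 to 1.20). No HSC-sort cell of either library held more than 1 Tet2 UMI. Tet3 had 68 and 124 UMIs, at 31.9 CPM (24.8 to 40.4) and 26.5 CPM (22.01 to 31.6), and its ratio was 0.830 (0.613 to 1.13). The 3 intervals leave room for a 1.5-fold difference in at least 1 direction, so such a difference was not excluded at this depth.

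Among the remaining Polycomb genes, Ezh1, a PRC2 enzyme found in resting cells, had 33 and 46 UMIs at 15.5 CPM (10.6 to 21.7) and 9.82 CPM (7.19 to 13.1). Its ratio was 0.635, with an interval from 0.397 to 1.02. Bmi1, the PRC1 ring protein gene, was at 20.6 CPM (14.99 to 27.7) and 16.4 CPM (13.0 to 20.5), and its ratio was 0.797 (0.543 to 1.18). Asxl1, the BAP1 cofactor, was at 14.5 CPM (9.87 to 20.6) and 17.9 CPM (14.3 to 22.2), and its ratio was 1.23 (0.808 to 1.93). The median log2 ratio of the 10 genes was -0.04, beside -0.08 over all genes tested. Scaling by TMM (trimmed mean of M values) or by the median of ratios raised the median of all genes by 0.11 and 0.14, turned the median of the 10 genes to 0.06 and 0.09, and left each single gene on the same side of 1. Tet1 then passed 1.5-fold (1.56 and 1.60), and Ezh1 no longer did. Of genes past the fold, 19.6% were higher in Id2Δ/Δ cells by totals, 35.1% by TMM and 41.7% by the median of ratios.

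**Figure D1:**
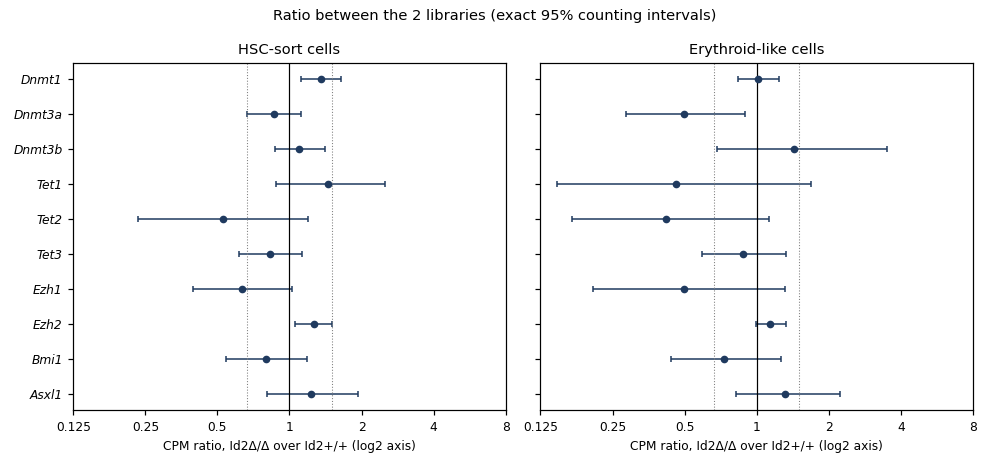
Ratio of CPM in the Id2Δ/Δ library over the Id2+/+ library for the 10 genes (points, log2 axis) with exact counting intervals (bars), in HSC-sort cells (left) and Erythroid-like cells (right); the solid line is at 1 and the dotted lines mark 1.5-fold. Summed over HSC-sort cells, the intervals of Dnmt1 (1.35) and Ezh2 (1.26) lie above 1, which was not so within their clusters, and in Erythroid-like cells that of Dnmt3a (0.495) lies below 1.

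Dnmt1 and Ezh2 were higher in cells with more cell-cycle RNA. HSC-sort cells of each library were split into 3 bins of equal size by the share of their UMIs from 35 S-phase and 39 G2/M genes, none of them among the 10. The bins are ranges of a score and not cell types, and 54 Id2+/+ and 52 Id2Δ/Δ cells lay within 10% of the lower limit and 28 and 42 within 10% of the upper one. In Id2+/+ cells, Dnmt1 was at 45.9 CPM (30.0 to 67.2), 41.2 CPM (26.7 to 60.9) and 95.8 CPM (77.2 to 117) in the low, middle and high bin. In Id2Δ/Δ cells, it was at 41.3 CPM (30.4 to 54.96), 71.1 CPM (58.0 to 86.2) and 131.0 CPM (116 to 147). The high bin exceeded the low bin 2.09-fold (1.34 to 3.36) and 3.17-fold (2.32 to 4.42). Ezh2 had the same order in both libraries, with 38.8, 56.1 and 120.7 CPM in Id2+/+ cells and 54.5, 78.7 and 143.4 CPM in Id2Δ/Δ cells. Its high bin exceeded the low bin 3.11-fold (1.96 to 5.15) and 2.63-fold (1.99 to 3.51). Cells of the high bin were also deeper, with medians of 10106 and 13612 UMIs against 6248.5 and 7813 in the low bin, and with each cell thinned to 1 depth before the split the ratios were 1.69 and 3.09 for Dnmt1 and 2.81 and 2.12 for Ezh2.

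Tet1 and Ezh1 had lower CPM in the high bin than in the low bin, beyond counting error only for Tet1 in Id2Δ/Δ cells. Tet1 went from 19.4 CPM (9.69 to 34.7) in the low bin to 7.29 CPM (2.93 to 15.01) in the high bin of Id2+/+ cells, and from 24.6 CPM (16.4 to 35.6) to 10.5 CPM (6.57 to 15.9) in Id2Δ/Δ cells. The high-to-low ratios were 0.375 (0.123 to 1.06) and 0.426 (0.232 to 0.771). Ezh1 went from 19.4 CPM (9.69 to 34.7) to 8.33 CPM (3.595 to 16.4) in Id2+/+ cells, a ratio of 0.429 (0.150 to 1.17), and from 14.1 CPM (8.04 to 22.9) to 9.05 CPM (5.45 to 14.1) in Id2Δ/Δ cells, a ratio of 0.643 (0.313 to 1.34). Split on G2/M genes alone, neither gene was past 1.5-fold lower in both libraries. Ezh1 was not when cells were thinned first, with ratios of 0.418 and 0.846.

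The de novo methyltransferases were near level over the bins, with high-to-low ratios of 1.04 (0.621 to 1.77) and 0.978 (0.659 to 1.47) for Dnmt3a and 0.958 (0.562 to 1.67) and 0.865 (0.614 to 1.23) for Dnmt3b. Bmi1 had ratios of 1.77 (0.769 to 4.56) and 1.08 (0.599 to 2.03). Tet3 differed in Id2+/+ cells (2.48, 1.22 to 5.54) and not beyond counting error in Id2Δ/Δ cells (0.870, 0.553 to 1.39). Asxl1 was lower in the high bin of Id2+/+ cells (0.354, 0.137 to 0.863), and its ratio in Id2Δ/Δ cells was 1.24 (0.687 to 2.34). Tet2 had under 20 UMIs in these bins and was not counted. Thus 2 of 9 genes were 1.5-fold or more higher in the high bin of both libraries, against 8.30% of 9859 genes, and 2 of 9 were lower, against 12.3%. Between the middle and low bins, 0 of 9 were higher (1.83% of 9491 genes) and 1, Tet1, was lower (3.04%).

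**Figure D2:**
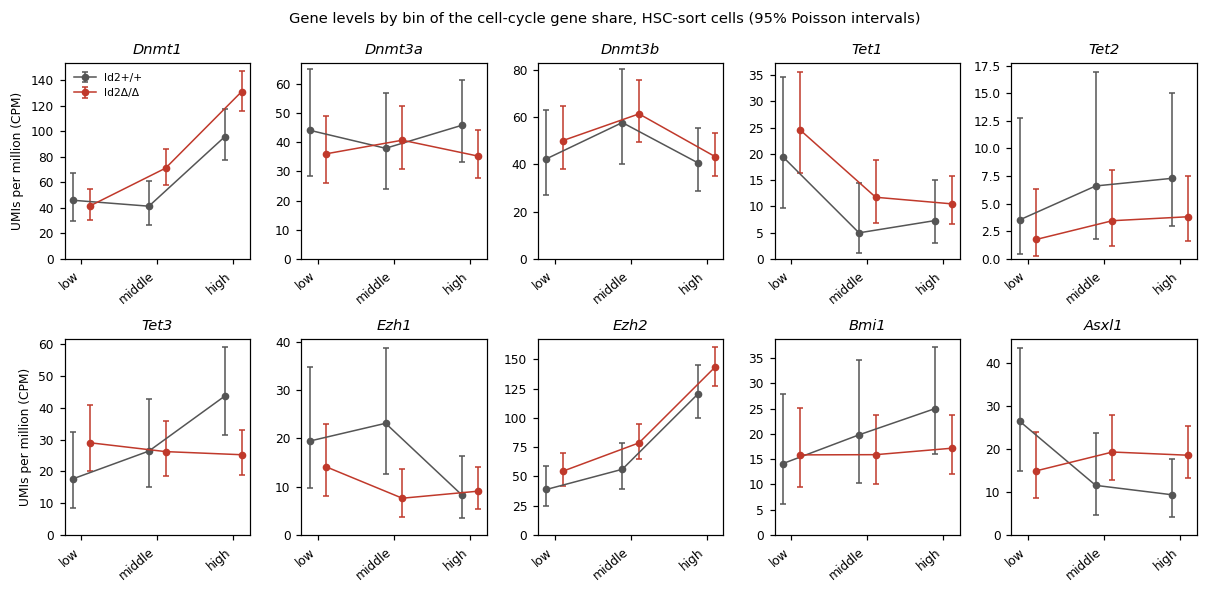
Level of each gene in CPM (vertical axes, from 0) in HSC-sort cells of the low, middle and high bin of cell-cycle gene share, set within each library, for Id2+/+ (grey) and Id2Δ/Δ (red); bars are exact Poisson intervals. Dnmt1 and Ezh2 are highest in the high bin of both libraries, Tet1 is highest in the low bin, and Dnmt3a and Dnmt3b are near level.

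The libraries differed in how many cells had a high cell-cycle share, so the genotypes were compared again between limits common to both, a choice made with the data in view. Above the upper common limit lay 58 of 262 Id2+/+ cells (22.1%, 17.3 to 27.7) and 168 of 416 Id2Δ/Δ cells (40.4%, 35.6 to 45.3). In these cells, Ezh2 was at 140.1 CPM (114 to 171) and 140.4 CPM (126 to 156), and its ratio was 1.002 (0.799 to 1.27). Dnmt1 was at 111.8 CPM (88.5 to 139) and 121.4 CPM (108 to 136), and its ratio was 1.09 (0.844 to 1.41). The genotypes therefore overlapped for both genes where they were highest. In the middle range, Ezh2 had a ratio of 1.01 (0.696 to 1.49) and Dnmt1 a ratio of 1.64 (1.10 to 2.48). In the low range, Ezh2 had a ratio of 1.51 (0.935 to 2.51) and Dnmt1 a ratio of 0.870 (0.523 to 1.46). Tet3 was lower in Id2Δ/Δ cells above the upper limit, with 34 and 63 UMIs and a ratio of 0.541 (0.351 to 0.846). In the middle range, Asxl1, with 6 and 25 UMIs, had a ratio of 2.70 (1.08 to 8.05). In the low range, Tet3 at 1.61 (0.778 to 3.56) and Asxl1 at 0.466 (0.208 to 1.02) lay on the other side of 1. Both of these intervals included 1. The other genes' intervals included 1 in each range.

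**Figure D3:**
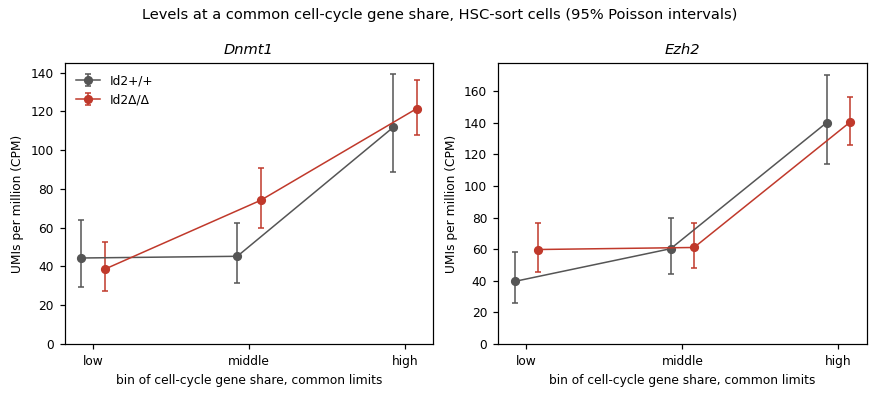
Dnmt1 (left) and Ezh2 (right) in CPM in HSC-sort cells between limits of cell-cycle gene share common to both libraries, for Id2+/+ (grey) and Id2Δ/Δ (red), with exact Poisson intervals. In the high range the genotypes overlap, with ratios of 1.09 for Dnmt1 and 1.002 for Ezh2.

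The balance of the PRC2 enzymes moved with the same score. In HSC-sort cells, Ezh2 gave 83.9% (78.1 to 88.7) of the Ezh1 plus Ezh2 UMIs in Id2+/+ and 91.2% (88.4 to 93.5) in Id2Δ/Δ cells, with exact binomial (Clopper-Pearson) intervals that overlapped narrowly. The share reflects capture as well as transcript numbers and is compared across cells only. In the low cycling bin of each library it was 66.7% (48.2 to 82.0) and 79.5% (68.8 to 87.8), in the middle bin 70.8% (55.9 to 83.0) and 91.2% (84.8 to 95.5), and in the high bin 93.5% (87.7 to 97.2) and 94.1% (90.9 to 96.4). The genotypes thus lay apart in the middle bin and overlapped in the high and low bins, but the middle bin of Id2Δ/Δ cells had the higher median cell-cycle share (0.488% against 0.372%). Between the common limits, the middle range gave 77.4% (65.0 to 87.1) and 88.2% (79.4 to 94.2), which overlapped. Erythroid-like cells reached 96.6% (93.4 to 98.5) and 98.5% (97.7 to 99.1). Empty droplets, whose profile enters each cell as free RNA, stood at 94.3% and 96.0%, above the HSC-sort cells. With that profile subtracted, the HSC-sort shares were 82.2% and 90.8%.

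Ezh1 and Ezh2 were also counted per cell at a common depth of 5800 UMIs. Of 196 Id2+/+ HSC-sort cells, 58 had Ezh2 alone, 12 Ezh1 alone, 6 both and 120 neither. Of 416 Id2Δ/Δ cells, 150 had Ezh2 alone, 22 Ezh1 alone, 7 both and 237 neither. No Erythroid-like cell had Ezh1 without Ezh2, among 34 and 156 cells. At this depth a cell without a UMI may still express the gene, so these counts do not separate cell classes.

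**Figure D4:**
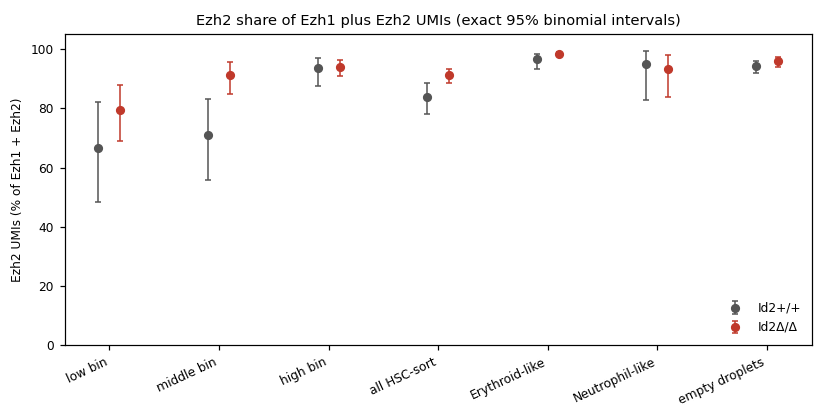
Share of Ezh2 among Ezh1 plus Ezh2 UMIs, in percent, by cell-cycle bin, in HSC-sort, Erythroid-like and Neutrophil-like cells and in empty droplets, for Id2+/+ (grey) and Id2Δ/Δ (red), with exact binomial intervals. The share is lowest in the low bin (66.7% and 79.5%) and highest in Erythroid-like cells (96.6% and 98.5%).

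The Erythroid-like cells had another set of levels, with Ezh2 high and the de novo methyltransferases low. Ezh2 was at 172.1 CPM (150 to 196) in Id2+/+ and 196.5 CPM (186 to 208) in Id2Δ/Δ Erythroid-like cells, which is 2.14-fold (1.74 to 2.62) and 1.93-fold (1.74 to 2.15) the level of the same library's HSC-sort cells. Dnmt3b was at 6.07 CPM (2.62 to 11.95) and 8.71 CPM (6.56 to 11.3), ratios of 0.132 (0.0555 to 0.271) and 0.172 (0.126 to 0.232). Dnmt3a was at 14.4 CPM (8.67 to 22.5) and 7.13 CPM (5.20 to 9.54), ratios of 0.334 (0.192 to 0.552) and 0.192 (0.135 to 0.268). For these 3 genes, the 2 kinds of cell did not overlap in either library.

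Tet1 and Ezh1 also had lower CPM in Erythroid-like cells, beyond counting error except for Tet1 in Id2+/+ cells. Tet1 had 5 and 11 UMIs, with ratios of 0.385 (0.113 to 1.05) and 0.122 (0.0581 to 0.232), and Ezh1 had 8 and 19, with ratios of 0.392 (0.157 to 0.866) and 0.307 (0.170 to 0.534). Dnmt1 was at 96.3 and 97.6 CPM, ratios of 1.44 (1.12 to 1.84) and 1.08 (0.949 to 1.22). Against the clusters high in HSC markers alone, Dnmt1 stood at 1.97 and 1.89 and Ezh2 at 3.395 and 3.26. The intervals of Tet2 (0.996 and 0.792), Tet3 (0.761 and 0.802) and Asxl1 (1.04 and 1.11) included 1 in both libraries. Bmi1 had ratios of 0.735 (0.411 to 1.27) and 0.675 (0.481 to 0.945). In both libraries, 1 of 10 genes was 1.5-fold or more higher, against 13.4% of 11077 genes, and 4 of 10 were lower, against 37.2%, so the count of lower genes is close to that of all genes. Erythroid-like cells had medians of 37549 and 40038.5 UMIs and of 1.69% and 1.87% for the cell-cycle share, against 0.372% and 0.488% in HSC-sort cells. The part of cycling in the Ezh2 level was not tested.

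Within Erythroid-like cells, the genotypes were close for Dnmt1, at a ratio of 1.01 (0.836 to 1.24), and Ezh2, at 1.14 (0.990 to 1.32). Dnmt3a was lower in Id2Δ/Δ cells, at 0.495 (0.284 to 0.896), from 19 and 45 UMIs. Its ratio in HSC-sort cells was 0.861, and the difference between these ratios was not tested. Of the 35 Id2+/+ cells, 27 were in a cluster with 0 Id2Δ/Δ cells, so cluster and genotype cannot be told apart there.

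Neutrophil-like cells had lower levels of most of the 10 genes. Ezh2 was at 80.1 CPM (56.4 to 110) and 77.1 CPM (58.2 to 100), ratios to HSC-sort cells of 0.994 (0.677 to 1.42) and 0.757 (0.564 to 1.0003), and Dnmt1 at 45.5 CPM (28.1 to 69.5) and 63.3 CPM (46.4 to 84.5), ratios of 0.678 (0.407 to 1.08) and 0.698 (0.503 to 0.948). Against the clusters high in HSC markers alone, Ezh2 stood at 1.598 and 1.29 and Dnmt1 at 0.949 and 1.24, so Ezh2 in both libraries and Dnmt1 in Id2Δ/Δ cells were then above 1. Dnmt3b had 4 and 7 UMIs, ratios of 0.189 (0.0504 to 0.498) and 0.191 (0.0758 to 0.399), and Dnmt3a had 8 and 9, ratios of 0.402 (0.168 to 0.825) and 0.334 (0.150 to 0.648). HSC-sort and Neutrophil-like cells did not overlap for either gene in either library. Tet3 had 2 and 8 UMIs, ratios of 0.136 (0.0161 to 0.510) and 0.416 (0.176 to 0.846), and Bmi1 had 3 and 2, ratios of 0.315 (0.0626 to 0.983) and 0.168 (0.0199 to 0.626). Tet1 had 0 and 5 UMIs, Ezh1 2 and 4, and Asxl1 1 and 7. The interval of Ezh1 included 1 in both libraries (0.0325 to 1.09 and 0.147 to 1.54), and those of Tet1 (0.151 to 1.18) and Asxl1 (0.210 to 1.16) did in Id2Δ/Δ cells. In all, 7 of 10 genes were 1.5-fold or more lower in both libraries (all but Dnmt1, Ezh2 and Tet2), against 34.8% of 10666 genes, and 0 were higher, against 7.39%. Haemoglobin-rich cells gave 3 UMIs of the 10 genes in each library, among 81159 and 111778 UMIs of which 87.3% and 88.5% on average per cell were haemoglobin, so levels there could not be judged.

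**Figure D5:**
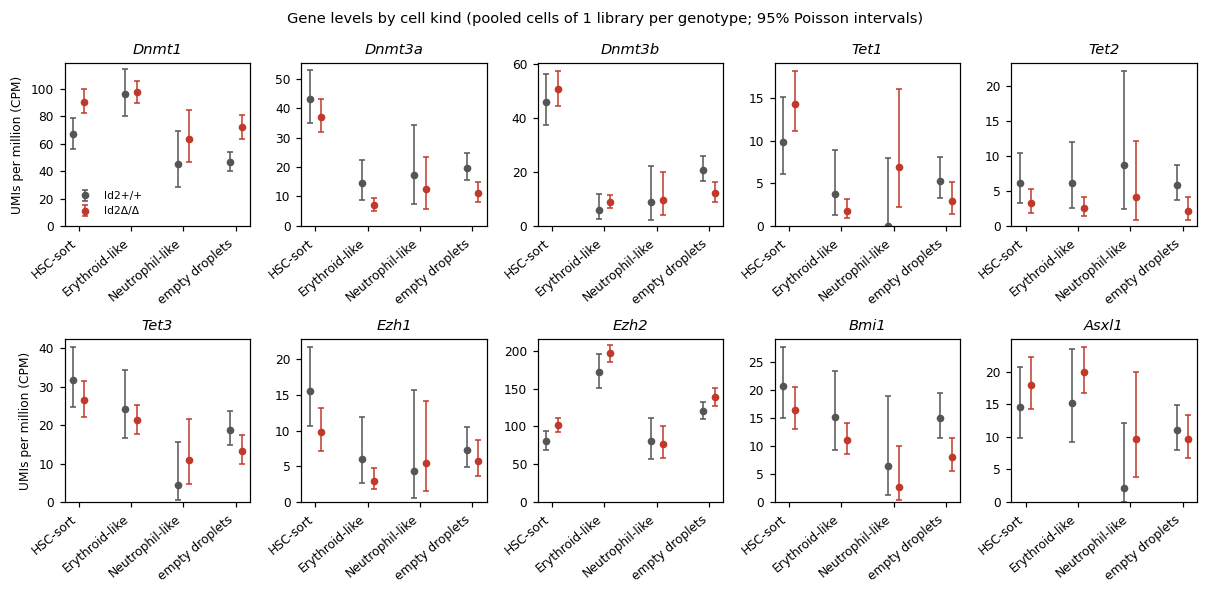
Level of each gene in CPM (vertical axes, from 0) in HSC-sort, Erythroid-like and Neutrophil-like cells and in empty droplets, for Id2+/+ (grey) and Id2Δ/Δ (red); bars are exact Poisson intervals. Ezh2 is highest in Erythroid-like cells (172.1 and 196.5 CPM), and Dnmt3a and Dnmt3b are highest in HSC-sort cells.

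Free RNA ran in the direction of the Erythroid-like cells for Ezh2, which was at 120.9 and 138.8 CPM in empty droplets, above HSC-sort cells. The other 9 genes had lower CPM in empty droplets than in HSC-sort cells of the same library, Dnmt1 at 46.9 and 72.0 CPM and Dnmt3b at 20.8 and 12.2 CPM. The interval of the ratio between them included 1 for Tet2 in both libraries. It also did for Tet1, Bmi1 and Asxl1 in the Id2+/+ library. With the empty-droplet profile subtracted, the ratio of Id2Δ/Δ over Id2+/+ HSC-sort cells was 1.32 for Dnmt1 and 1.31 for Ezh2.

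The share of cells with a UMI was compared with each cell thinned to 5800 UMIs, which left out 66 shallower Id2+/+ HSC-sort cells and none of the Id2Δ/Δ ones. Ezh2 was found in 32.7% (26.1 to 39.7) of Id2+/+ and 37.7% (33.1 to 42.6) of Id2Δ/Δ cells, and in 76.5% (58.8 to 89.3) and 67.9% (60.0 to 75.2) of Erythroid-like cells. Dnmt1 was found in 25% (19.1 to 31.7) and 34.6% (30.0 to 39.4) of HSC-sort cells. Unthinned, these shares were 38.9% and 54.1% for Ezh2 and 32.1% and 50% for Dnmt1, which carry the difference in depth. Dnmt3a was found in 24.5% (18.6 to 31.1) and 17.5% (14.0 to 21.6), and Dnmt3b in 21.9% (16.4 to 28.4) and 26.4% (22.3 to 31.0). For comparison, 0 of 34 Id2+/+ Erythroid-like cells, where 3 cells would be a share of 8.82%, and 3.85% (1.42 to 8.18) of 156 Id2Δ/Δ ones had a Dnmt3b UMI. Unthinned, at their greater depth, 20% and 31.4% of Erythroid-like cells had one.

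Bmi1 differed more by this measure than by level, at 15.3% (10.6 to 21.1) of Id2+/+ and 7.21% (4.92 to 10.1) of Id2Δ/Δ HSC-sort cells. Over the thinned counts its ratio was 0.471 (0.279 to 0.794), beside 0.797 over all counts, and unthinned, with the Id2Δ/Δ cells deeper, it was found in 15.6% and 16.6% of cells. The thinned difference rests on 1 draw of UMIs. Tet3 was found in 16.3% and 14.4% of thinned cells, Ezh1 in 9.18% and 6.97%, Asxl1 in 9.69% and 9.13%, Tet1 in 4.59% and 8.89%, and Tet2 in 4.59% and 1.44%. A thinned cell of either genotype held a UMI of 2 of the 10 genes at the median. None was found in 19.4% and 15.9% of cells.

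HSC-sort cells with Hlf and no Cd34 (39 Id2+/+ and 72 Id2Δ/Δ cells) were compared with those with Cd34 (88 and 209), since Hlf marks HSCs and Cd34 was taken to mark activated ones. Only the class of a cell was set after thinning to 5800 UMIs, and the values are from all its UMIs. Cells with Hlf and no Cd34 had medians of 7249 and 8349 UMIs, against 7771 and 9308 in those with Cd34, and the part of this depth difference was not tested. With 0.5 UMI added to each count, no gene of the 10 differed 1.5-fold or more in both libraries, against 2.66% of 9579 genes higher and 1.99% lower. Dnmt3b missed that measure narrowly in Id2Δ/Δ cells (0.6671 with the added UMI) and was past 1.5-fold in both libraries without it, with 11 and 43 UMIs in Id2+/+ and 28 and 131 in Id2Δ/Δ cells, ratios of 0.591 (0.275 to 1.17) and 0.658 (0.421 to 0.995). Tet1 was at 31.4 CPM (19.7 to 47.6) in Id2Δ/Δ cells with Hlf and no Cd34 and 14.4 CPM (9.78 to 20.4) in those with Cd34, a ratio of 2.18 (1.21 to 3.90). In Id2+/+ cells it had 2 and 7 UMIs and a ratio of 0.660 (0.0669 to 3.47), so the Id2Δ/Δ difference was not seen there at this depth. A single Cd34 UMI set the class of 42 and 120 cells, and a single Hlf UMI that of 21 and 45 cells without Cd34.

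The 10% of HSC-sort cells with the highest share of 12 platelet genes (26 and 41 cells) were set beside the others. Ezh2 was at 124.9 CPM (90.4 to 168) and 147.2 CPM (122 to 176) in them, ratios of 1.73 (1.20 to 2.46) and 1.59 (1.28 to 1.97), and Dnmt1 at 110.4 and 122.4 CPM, ratios of 1.88 (1.26 to 2.75) and 1.46 (1.15 to 1.83). Tet1 gave 0 and 2 UMIs there, with an upper limit of 0.998 for the ratio in Id2+/+ cells and a ratio of 0.148 (0.0175 to 0.555) in Id2Δ/Δ cells. Ezh1 gave 0 and 5 UMIs, with an upper limit of 0.615 and a ratio of 0.585 (0.180 to 1.48), so its Id2Δ/Δ interval included 1. In both libraries 1 of 10 genes was past 1.5-fold higher (6.34% of all genes) and 2, Tet1 and Ezh1, were past 1.5-fold lower (13.9%). These cells had a median cell-cycle share of 0.915% and 1.09%, against 0.352% and 0.456% in the others, and its part in the differences was not tested.

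The wider lists held 57 genes in the matrices, of which 55 had at least 20 UMIs. By totals, 0 were 1.5-fold or more higher in Id2Δ/Δ HSC-sort cells (3.30% of all genes) and 6 lower (13.5%), with a median log2 ratio of -0.18. By TMM 2 were higher and 4 lower, with a median of -0.08, and by the median of ratios 3 and 4, with a median of -0.05. Among 16 further DNA methylation genes, 2 were lower, Mbd6 and Zbtb33. Mbd6, a methyl-CpG-binding domain gene, was at 22.5 and 13.2 CPM, a ratio of 0.588 (0.397 to 0.876), the only gene of these lists past 1.5-fold with at least 100 UMIs. The other genes of these lists named here fall outside the rule for naming and were picked after their values were seen. Uhrf1, the recruiter of DNMT1, was at 45.9 and 51.6 CPM (1.12, 0.886 to 1.44), and Hells, a chromatin remodeller needed for DNA methylation, at 57.7 and 80.2 CPM (1.39, 1.13 to 1.72). Uhrf1 was higher in Erythroid-like cells, at 130.4 and 118.4 CPM.

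Of the 9 PRC2 genes tested 1 was lower (Phf1), and of the 22 PRC1 genes 2 were lower (Cbx7 and Cbx8) and 0 higher by totals, with medians of -0.28 and -0.30. By TMM and by the median of ratios 1 PRC1 gene was lower and 1 higher. Of the 8 genes for histone H2A deubiquitination and H3K27 demethylation, 1 was lower (Kdm6b) by totals and 0 by either other scaling, with a median of -0.28 by totals. These counts of lower genes stand beside 13.5% of all genes and none of them exceeds that share. The PRC2 core partners of EZH2 were close between genotypes, Eed at 1.13 (0.932 to 1.38) and Suz12 at 0.825 (0.610 to 1.12). Cbx7, a PRC1 reader of H3K27 methylation, had 43 and 45 UMIs and a ratio of 0.476 (0.307 to 0.741), and Phf1, a PRC2 accessory gene, had 28 and 23 and a ratio of 0.374 (0.206 to 0.673). In Erythroid-like cells of both libraries, 4 of 16 DNA methylation genes were 1.5-fold or more lower and 2 (Uhrf1 and Mbd2) higher, 3 of 9 PRC2 genes were lower and 1 (Suz12) higher, 11 of 22 PRC1 genes were lower and 0 higher, and 3 of 8 genes of the H2A and H3K27 list were lower and 1 (Hcfc1) higher, beside 37.2% of all genes lower and 13.4% higher. In the high cycling bin, 3 of 15 DNA methylation genes (Uhrf1, Hells and Mbd4) were higher in both libraries and 1, Mbd5, was lower, 0 of 8 PRC2 genes differed, 0 of 22 PRC1 genes were higher and 2 lower, and in the H2A and H3K27 list of 8 genes Foxk2 was higher and Ogt lower, beside 8.30% of all genes higher and 12.3% lower. Of classical Polycomb targets, the cell-cycle inhibitor genes Cdkn2a and Cdkn2b had 1 and 0 UMIs in all HSC-sort cells, and the other 3 had enough UMIs to compare. Hoxa9 was at 71.7 and 57.6 CPM, a ratio of 0.803 (0.657 to 0.986). Cdkn2c had 25 and 83 UMIs and a ratio of 1.51 (0.957 to 2.47), and Cdkn1a had 6 and 15 and a ratio of 1.14 (0.417 to 3.58). The median log2 ratio of these 3 genes was 0.12.

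Genes with a similar pattern over 12 points (Erythroid-like, Neutrophil-like and Haemoglobin-rich cells and the 3 cycling bins, in each of 2 libraries) were ranked by Pearson's r of log2(CPM + 1) among 2388 genes, for the 4 of the 10 genes with at least 200 UMIs. The 3 nearest to Dnmt1 were Hspa14 (r = 0.982), Chaf1b (0.980), which is in the S-phase list, and Psmd13 (0.978). Those of Ezh2 were Hn1 (0.994), Fam104a (0.992) and Ppm1g (0.991), those of Dnmt3b were H2-DMa (0.991), Tspan3 (0.989) and Plgrkt (0.989), and those of Dnmt3a were Hist1h2bc (0.964), PISD (0.957) and Sepp1 (0.952). The points share 2 libraries and cells of very different depth, and the Haemoglobin-rich points lie near 0. Over the other 10 points, r was 0.720 to 0.829 for the neighbours of Dnmt1, 0.923 to 0.965 for those of Ezh2, 0.968 to 0.981 for those of Dnmt3b and 0.895 to 0.920 for those of Dnmt3a.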

How the data were processed

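The 2 libraries of sorted mouse HSCs were sequenced by scRNA-Seq, 1 per genotype. Per the labels and the submitters' processing notes, reads were processed with Cell Ranger 2.2.0 on mm10, and the deposited values are whole-number UMI counts for 27998 genes in all 737280 barcodes, neither filtered nor normalized. Groups were taken from the labels' genotype. The 10 genes, and the lists of pathway, cell-cycle and marker genes, were chosen with earlier results of these data known.

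Cells were barcodes above 10% of the 99th percentile of the 1000 deepest barcodes, with at most 10% mitochondrial UMIs. The libraries were clustered jointly (scanpy 1.11.5, leidenalg 0.10.2; 2000 variable genes without the 10 genes, 20 components, 15 neighbours, resolution 1.0). A cluster with at least 4 markers of another blood cell type, each at a log2 fold of 1 and in 25% of its cells, was set apart from the HSC-sort cells, as were cells rich in haemoglobin. Megakaryocyte genes were not among those markers. Doublets were not removed, and no doublet caller was run. Barcodes of 1 to 100 UMIs were taken as empty droplets.

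Levels are UMIs summed over cells, in CPM. Their intervals are exact Poisson ones, those of ratios exact conditional ones and those of shares Clopper-Pearson ones, all at 95% (SciPy 1.17.1), covering counting error only. With 1 library per genotype no test was run. Genes were counted as higher or lower from 1.5-fold, with 0.5 UMI added to each count and at least 20 UMIs, in both libraries where cells were compared within a library. Counts of the 10 genes between genotypes under other settings took no such limit of UMIs. Pathway genes were named where past that fold with at least 100 UMIs. Shares of cells used cells thinned to 5800 UMIs. TMM (edgeR 4.0.16) and median-of-ratios (DESeq2 1.42.0) scaling were alternatives. Gene positions were matched by symbol, 10 of 10, to RefSeq on GRCm38.p6.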

Additional observations from a re-analysis of the deposited data

How the results depend on the processing

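No paired analysis was possible because no genotype has a second library, and so none could be left out. Across 17 settings, the ratio of Id2Δ/Δ over Id2+/+ HSC-sort cells ran from 1.002 to 1.51 for Ezh2 and from 0.870 to 1.71 for Dnmt1. Within single HSC-sort clusters, which are not among these settings, Dnmt1 was below 1 in the 4 with UMIs in both libraries and had 0 Id2Δ/Δ UMIs in the other 2 (upper limits 0.663 and 2.82), and Ezh2 was below 1 in 4 of 6. Among the settings, Dnmt1 reversed to 0.870 at low cell-cycle share by common limits; with Xist-positive cells it was 1.13 and with Y-linked-positive cells 1.71. Of the 10 genes, 0 were higher by 1.5-fold as reported and 1 was with the labels' number of cells, TMM, median-of-ratios scaling, thinned cells, the deepest 5% of cells left out, Xist-positive cells, Y-linked-positive cells, the cell with most UMIs of a gene left out, clusters high in HSC markers and a low common cycle share. A middle common share gave 3 and a high one 2. The latter were Tet1, with 3 and 25 UMIs (2.43, 0.742 to 12.6), and Asxl1, with 8 and 46 (1.68, 0.784 to 4.12). The share of all genes past the fold is not given for these subsets of cells. Their counts are therefore not read as results about the 10 genes. The count of lower genes went from 2 to 1 with TMM and with the median of ratios and to 0 in Xist-positive cells, and was 3 with every cell type kept, in Y-linked-positive cells and at a middle common share. These counts of higher and lower genes between genotypes took no lower limit of UMIs. The lower genes at a middle common share include Tet2, with 6 and 5 UMIs. Against clusters high in HSC markers, 2 genes (Ezh2 and Dnmt1) and not 1 were higher in Erythroid-like cells. In the high cycling bin, 0 were lower with the G2/M list alone and 1 with thinned cells, in place of 2. As a share of cells with either gene, Ezh2 stood at 87.7% in Id2Δ/Δ cells, in place of 91.2% of UMIs. The median log2 ratio of the wider lists was -0.075 with TMM, in place of -0.18. Causes were not tested. Leaving out B-lineage cells, taking clusters high in HSC markers and the common cycle shares were choices made after seeing the data. Of the 17 ratios a gene, clusters not included, those above 1 numbered 17 for Ezh2 and Tet1, 16 for Dnmt1 and Dnmt3b, 15 for Asxl1, 2 for Dnmt3a and Tet3, and 1 for Tet2, Ezh1 and Bmi1. Depth limits Tet2 most, with 28 UMIs in HSC-sort cells.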
